A study of Mus musculus with 6 samples.

Results

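The translation initiation and elongation factors were taken as the genes whose symbol starts with Eif or Eef and a digit, without Eif4a3 and without symbols that contain -ps. The lists held 65 such genes, and 43 of them had at least 1 shared position, a cytosine that was listed with coverage of at least 20 reads in all 6 libraries. Together they held 5169 of the 214659 shared positions, spread over 44 of 4804 entries of the gene column, because 9 positions were assigned to Eef1a1 and Gm26377 together and were kept as an entry of their own. RNA bisulfite sequencing (RNA BS-seq) turns cytosines without a methyl group into bases that are read as T, whereas 5-methylcytosine (m5C) is still read as C. The methylation level of a position is the percentage of reads with an unconverted C among unconverted and converted reads.

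The cells were cortical neurons of wild-type C57BL/6 mouse embryos (E16.5, males and females pooled), kept in culture for 7 days. All groups, the 0 h control included, had been silenced overnight from day 6 with 1 µM tetrodotoxin (TTX), a blocker of sodium channels, and 100 µM DL-AP5, a blocker of NMDA receptors. KCl at 55 mM then depolarized the cells for 2 h or 6 h, while the 0 h group was harvested without this step. Each time point had 2 biological replicates (6 libraries), and poly(A) RNA was sequenced. The comparisons ask how the mRNAs of the translation machinery, and the cytosine methylation on them, changed with depolarization.

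In translation initiation, eIF2 brings the initiator tRNA to the small ribosomal subunit, eIF1 and eIF1A keep it scanning until a start codon is met, and eIF3 and the cap-binding eIF4F complex (eIF4E, eIF4G, and the helicase eIF4A) recruit the mRNA. The proteins encoded by Eif4ebp1 and Eif4ebp2 hold back eIF4E until mTOR phosphorylates them, and the kinases encoded by Eif2ak1 to Eif2ak4 slow initiation by phosphorylating eIF2. In elongation, eEF1A delivers aminoacyl-tRNA, the eEF1B subunits recharge it with GTP, and eEF2 moves the ribosome along. In neurons, translation close to synapses is regulated through several of these factors.

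The positions on which the methylation results turn are shown with the 10 bases on each side as deposited in the call lists (GRCm38, RNA strand, 5′ to 3′). The capital marks the cytosine measured. The first 4 had the highest levels outside a repeat in the 5′ UTR of Eif4ebp2, the fifth is the position of highest level in that repeat, and the last 2 are the best covered of the positions with a level above 3%.
Eif2ak1, coding sequence, chr5:143871918-143871938, plus strand: gttccctttcCtggtggcaaa
Eif4ebp1, 3′ UTR, chr8:27275232-27275252, plus strand: gctcctcactCagggtgccag
Eif4a1, 3′ UTR, chr11:69667082-69667102, minus strand: accaaatctaCagggagaacc
Eif4ebp2, 3′ UTR, chr10:61430145-61430165, minus strand: cttaaagaaaCctgtaagaga
Eif4ebp2, 5′ UTR, chr10:61452585-61452605, minus strand: gccgccgccgCcgccgccgcc
Eif4g2, coding sequence, chr7:111077420-111077440, minus strand: aattgccagcCaggattcgtt
Eif3h, coding sequence, chr15:51790096-51790116, minus strand: cagcaatcatCtggggaagag

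The summed coverage of the shared positions ranged from 874012933 to 1193321589 reads per library, where a read counts once at each cytosine it covers. The median coverage of the 5169 translation factor positions ranged from 3624 to 5409, against 2607 to 3639 over all shared positions. A listed position has at least 1 unconverted read, so the shared positions favour deeply covered cytosines. Over the listed cytosines that had 5000 reads or more and stayed below 1%, the unconverted share was 0.115% in 6 h replicate 1 and 0.0838% to 0.0870% in the other 5 libraries. Fos, an immediate early gene, had 56.4 and 74.5 reads per shared cytosine before KCl, 10131 and 9112 after 2 h, and 5526 and 4911 after 6 h, after scaling to library size. Of the neuronal markers, Tubb3, Map2, Snap25, and Syt1 were covered at 2820 reads per shared cytosine or more in every library, and Rbfox3, with 1 shared position, at 162 to 271. The astrocyte marker Slc1a3 had 2878 to 3604. No marker of microglia or of cycling cells had a shared position, but this does not mean that they were absent. Cx3cr1 had 65 to 162 listed cytosines per library, Top2a 142 to 274, and Mki67 67 to 332, whereas Csf1r and Sox2 had 0.

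Methylation of these mRNAs was low at almost every cytosine. Of the 5169 positions, 5106 had a level under 1% over the summed reads of all libraries, 44 had a level of 1% to 5%, and 19 had a level of 5% or more. The last group made up 0.368% of the translation factor positions, against 1.48% of all shared positions, and 16 of the 19 lay in 1 stretch of Eif4ebp2. The median level was 0.102%, against 0.114% over all shared positions. Every shared position has an unconverted read in each library, so the lowest level it can have depends on depth. The factor positions were the deeper ones, and the part of depth in these differences was not tested. The most abundant mRNAs held no position above 1%. The highest level was 0.422% among 361 positions of Eef1a1 and 0.827% among 753 positions of Eef2.

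With the standard filter of the study (coverage of at least 20, level of at least 10%, at least 6 methylated reads in both replicates), 12, 14, and 13 positions passed before KCl, after 2 h, and after 6 h, out of 1949, 2042, and 1960 positions of all genes. At 0 h all 12 were in Eif4ebp2. The same gene had 12 at 2 h and at 6 h, all in the repeat of its 5′ UTR. The study's further filters, on reads with several unconverted cytosines and on secondary structure, were not repeated, so these positions could fail them. The position of Eif2ak1 was added at 2 h and at 6 h, and that of Eif4ebp1 at 2 h.

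Positions were tested between time points by Fisher's exact test on the summed reads of the replicates, with Benjamini-Hochberg adjustment over the 3167 positions of all genes that had a level of 5% or more. Of the 19 translation factor positions, 1 was called for 2 h against 0 h, where 11.7% of all positions tested were called, 2 for 6 h against 0 h (10.3%), and 2 for 6 h against 2 h (17.5%). Summed reads leave out the spread between replicates. With limma on the log ratios of the single libraries, 0 of all 3167 positions were called in any comparison, while 230, 142, and 174 had an unadjusted p below 0.05.

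Eif2ak1 encodes HRI, the heme-regulated eIF2 kinase that also responds to oxidative and mitochondrial stress. Its position at chr5:143871928 lies in exon 2 of 15, 183 nt after the first base of the start codon. The level was 4.04% and 4.52% before KCl, 10.2% and 10.7% after 2 h, and 13.0% and 11.7% after 6 h (replicates 1 and 2), at a coverage of 149 to 297 reads. Both replicates at 2 h and at 6 h were above both replicates at 0 h, and the 2 h and 6 h values also did not overlap. The level was 6.20 percentage points higher at 2 h than at 0 h (Fisher's exact test, adjusted p = 0.0110) and 7.97 points higher at 6 h (adjusted p = 2.48e-04), while 2 h and 6 h differed by 1.77 points (adjusted p = 0.840). In limma the adjusted p was 0.568 and 0.817, with unadjusted values of 0.0275 and 0.0128. The 2 h call was lost without 0 h replicate 1 (adjusted p = 0.180), without 2 h replicate 1 (0.0526), or without 2 h replicate 2 (0.0646).

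The neighbours of this cytosine were converted. Of the 19 other cytosines within 25 nt, all were listed in at least 1 library, and none reached 5% in any library (highest 3.69%). The mRNA itself had only 2 shared positions, with 652 and 543 scaled reads before KCl, 459 and 398 after 2 h, and 496 and 542 after 6 h. Thus the 2 h libraries were lower than the 0 h libraries. The 6 h libraries also lay below both 0 h values, replicate 2 only just (542 against 543). In a fit without the minimum of 3 positions the 2 h difference was −0.43 ± 0.12 (log2, SE; edgeR adjusted p = 0.0395). The 6 h difference of −0.15 ± 0.12 was not called (edgeR adjusted p = 0.322).

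Eif4ebp1 encodes 4E-BP1, a repressor of cap-dependent initiation. Its position at chr8:27275242 lies in the last of 3 exons, 134 nt after the last coding base, and was the only shared position of this mRNA. The level was 9.46% and 3.87% before KCl, 10.4% and 13.4% after 2 h, and 2.21% and 3.5% after 6 h, at a coverage of 134 to 271 reads. The 0 h replicates were far apart, with Wilson 95% intervals of 5.72% to 15.3% and 1.79% to 8.19%, whereas the 2 h libraries were the highest and the 6 h libraries the lowest of the 6. From 2 h to 6 h the level fell by 9.06 percentage points (Fisher's exact test, adjusted p = 1.72e-05; limma adjusted p = 0.701, unadjusted p = 0.00798). The changes from 0 h were 5.30 points at 2 h (Fisher's exact test, adjusted p = 0.170) and −3.76 points at 6 h (adjusted p = 0.0879, but 0.0301 without 0 h replicate 2). The coverage at this position moved the other way, with 142 and 180 scaled reads before KCl, 118 and 139 after 2 h, and 283 and 244 after 6 h. Its 2 h change of −0.27 ± 0.19 (log2, SE) was not called in the fit without the minimum of 3 positions (edgeR adjusted p = 0.320). Among 14 listed cytosines within 25 nt the highest level was 1.82%.

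Eif4a1 encodes one of the cytoplasmic eIF4A helicases. Its position at chr11:69667092 lies in the last exon (exon 11), 384 nt after the last coding base, with levels of 3.32% and 4.66% before KCl, 5.64% and 5.41% after 2 h, and 5.75% and 8.56% after 6 h. Every library after depolarization was above both 0 h libraries. The 6 h level was 3.28 points higher than that at 0 h (Fisher's exact test, adjusted p = 0.0395; limma adjusted p = 0.999), and the adjusted p was 0.0584 with the replicate number as a block, 0.438 without 0 h replicate 1, 0.0699 without 0 h replicate 2, and 0.354 without 6 h replicate 2. At 2 h the difference was 1.55 points (adjusted p = 0.501).

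A position in the 3′ UTR of Eif4ebp2, which encodes 4E-BP2, the 4E-BP of the brain, had a level of 4.92% over all libraries and so fell just under the 5% minimum. It lies at chr10:61430155, 3645 nt after the last coding base. The level was 2.11% and 0.726% before KCl, 8.97% and 9.66% after 2 h, and 4.59% and 3.44% after 6 h, at a coverage of 392 to 617 reads. The groups did not overlap in any comparison. In a wider test over the 9473 positions with a level of 1% or more, added after the values were seen, the level was 7.73 points higher at 2 h than at 0 h (Fisher's exact test, adjusted p = 3.22e-13), 2.43 points higher at 6 h (adjusted p = 0.0155), and 5.30 points lower at 6 h than at 2 h (adjusted p = 2.21e-04). In that test 5, 4, and 6 of 63 translation factor positions were called (2 h against 0 h, 6 h against 0 h, 6 h against 2 h), beside 9.72%, 11.3%, and 12.7% of all positions. Limma was not run on this wider set, so its p-values leave out the spread between replicates. The 6 other cytosines within 25 nt were at most at 0.775%.

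**Figure D1:**
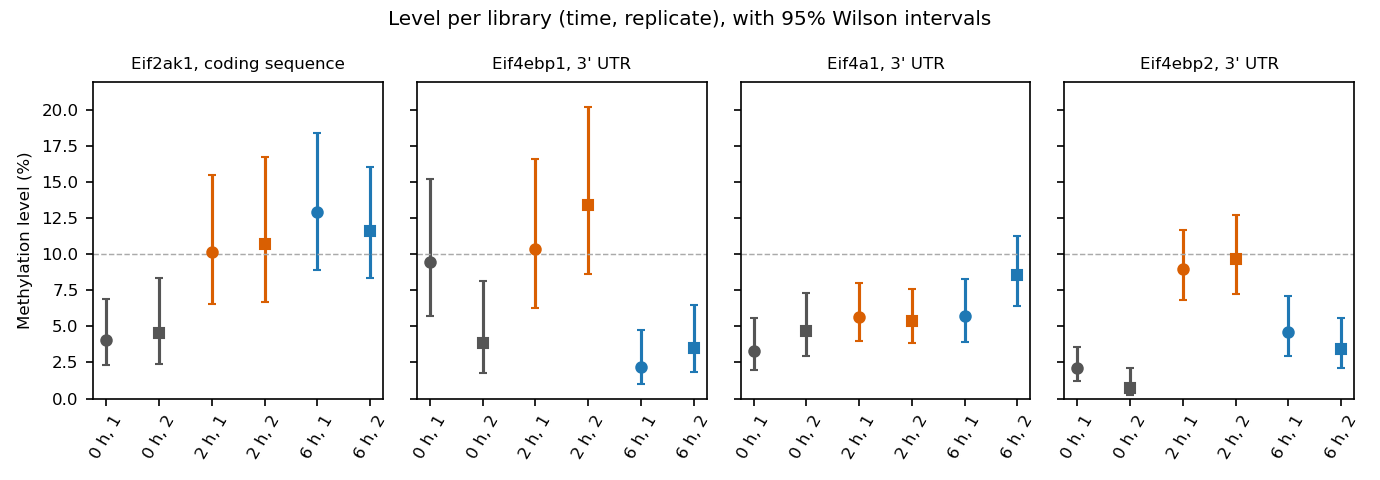
Methylation level in percent (y axis) at 4 positions in each of the 6 libraries (x axis, time of KCl and replicate), with Wilson 95% intervals that cover counting error only; the dashed line marks 10%. At Eif2ak1 all libraries at 2 h and 6 h lie above the 0 h libraries, while at Eif4ebp1 and in the Eif4ebp2 3′ UTR the 2 h libraries are the highest.

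The highest levels were found in the 5′ UTR of Eif4ebp2, in a run of 10 CCG units (30 nt, chr10:61452581-61452610), where 18 of the 20 cytosines were shared positions and 12 had a level of 10% or more. Levels formed a hump along the run. They were highest 52 to 48 nt before the start codon, at 32.3% to 34.4% over all libraries, and 2.56% and 5.14% at the outermost shared cytosines. The mean over the 12 positions was 26.2% and 29.9% before KCl, 29.2% and 26.7% after 2 h, and 23.1% and 24.0% after 6 h, at a coverage of 218 to 396 reads. The 0 h and 2 h libraries overlapped, and both 6 h libraries were the lowest. Only 1 of the 16 tested positions of the run was called, at chr10:61452606, with levels of 4.30% and 7.17% before KCl, 8.33% and 6.99% after 2 h, and 4.42% and 2.99% after 6 h. It was 3.92 points lower at 6 h than at 2 h (Fisher's exact test, adjusted p = 0.0333; limma adjusted p = 0.806; 0.0563 to 0.199 when any of the 4 libraries was left out). The positions lie a few nt apart and share reads, so they are not independent measurements. The study removed reads with several unconverted cytosines and positions in predicted secondary structure. Neither step was repeated here, so whether this run would pass was not tested.

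**Figure D2:**
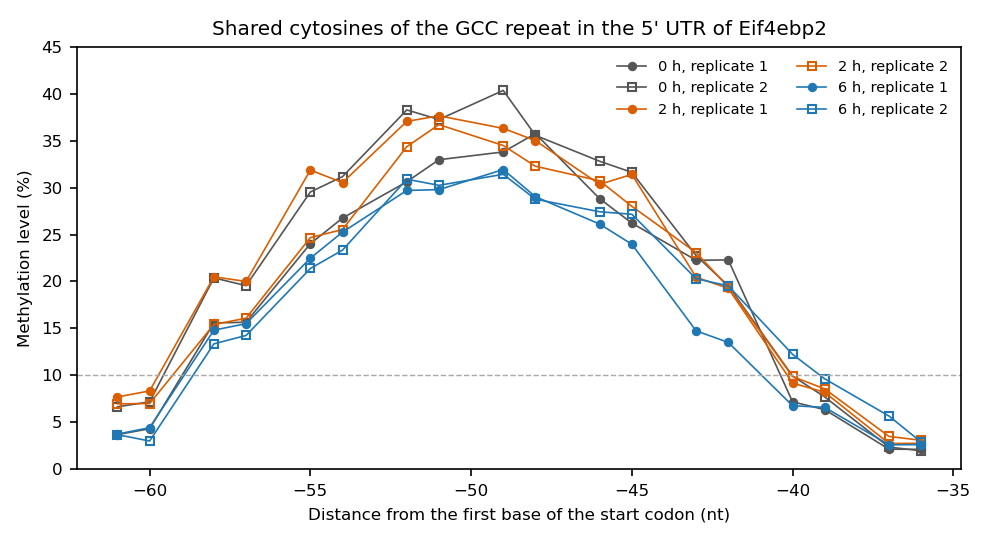
Methylation level in percent (y axis) at the 18 shared cytosines of the CCG repeat in the Eif4ebp2 5′ UTR against their distance from the start codon in nt (x axis), 1 line per library; the dashed line marks 10%. All libraries show the same hump, and both 6 h libraries had the lowest means of the 12 central positions (23.1% and 24.0%).

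Low but precise levels were measured at deep positions. At chr7:111077430 in Eif4g2, exon 10 of 22, the level was 3.40% and 3.22% before KCl, 4.16% and 4.67% after 2 h, and 3.47% and 3.28% after 6 h, at a coverage of 10105 to 18478 reads. The 2 h libraries were above all others. The difference of 1.05 points from 0 h and of 1.00 points from 6 h was called in the wider test (Fisher's exact test, adjusted p = 4.46e-08 and 7.75e-09). These p-values, too, leave out the spread between replicates. The other 8 cytosines within 25 nt did not exceed 0.193%. At chr15:51790106 in Eif3h, exon 6 of 8, the level was 3.47% and 3.54% before KCl, 3.46% and 3.55% after 2 h, and 3.03% and 3.25% after 6 h, at a coverage of 5091 to 6380 reads, and no comparison was called.

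Outside Eif4ebp2, the 3 positions with a level of 5% or more (Eif2ak1, Eif4ebp1, and Eif4a1) all had the letters CNGG on the RNA strand, where C is the cytosine measured. So did 6 of 41 positions with a level of 1% to 5% (14.6%), among them those of Eif4g2 and Eif3h, and 385 of 5105 with a level under 1% (7.54%). Over all genes CNGG was found at 13.3% of the positions with a level of 5% or more, at 16.4% of those with 1% to 5%, at 8.58% of those under 1%, and at 8.87% of all shared positions. The Eif4ebp2 run has no such match, and neither has the 3′ UTR position of Eif4ebp2. The longer CNGGG stood at 2 of the 3 positions (not at Eif2ak1), at 3 of the 41, and at 1.27% of those under 1%. Over all genes it stood at 6.88%, 7.18%, and 1.81% of the positions, in the same order of levels.

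Eif4g2 encodes DAP5, a relative of eIF4G that lacks the eIF4E-binding part. It held 30 of the 44 positions with a level between 1% and 5%, and 21 of these lay in exon 14 (chr7:111076280-111076393), which 1 of 2 annotated coding transcripts contains. The 24 shared cytosines of this exon were covered by a median of 240 and 281 scaled reads before KCl, 279 and 330 after 2 h, and 328 and 294 after 6 h, against 2044 to 2999 over the other 656 positions of the mRNA. Over all libraries the 24 levels lay between 0.802% and 2.21%, with a median per library of 0.696% and 0.940% before KCl, 2.41% and 0.939% after 2 h, and 3.44% and 1.82% after 6 h. Both 6 h libraries were above both 0 h libraries, while only 1 of the 2 h libraries was above both. The median level of the other 656 positions was 0.373% in 6 h replicate 1, the library with the highest median in exon 14, and 0.188% to 0.221% in the other 5. Its part in the exon 14 values was not tested. Summed over the libraries, a cytosine of exon 14 had a median of 30.5 unconverted reads among 1760, one of exon 17 had 46.0 among 21569, and one of exon 11 had 96.0 among 89901. The median levels of exons 6 to 12, with 55072 to 89901 reads, were 0.0934% to 0.117%, and those of the 5 exons with the fewest reads (exons 2, 14, 15, 19, and 20, with 1760 to 9723) were 0.382% to 1.79%. Not every exon followed this order, as exon 3 had 0.132% at 14107 reads, against 0.398% for exon 16 at 14006. The other 4 of the 28 cytosines of exon 14 were not shared positions and have no value here.

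**Figure D3:**
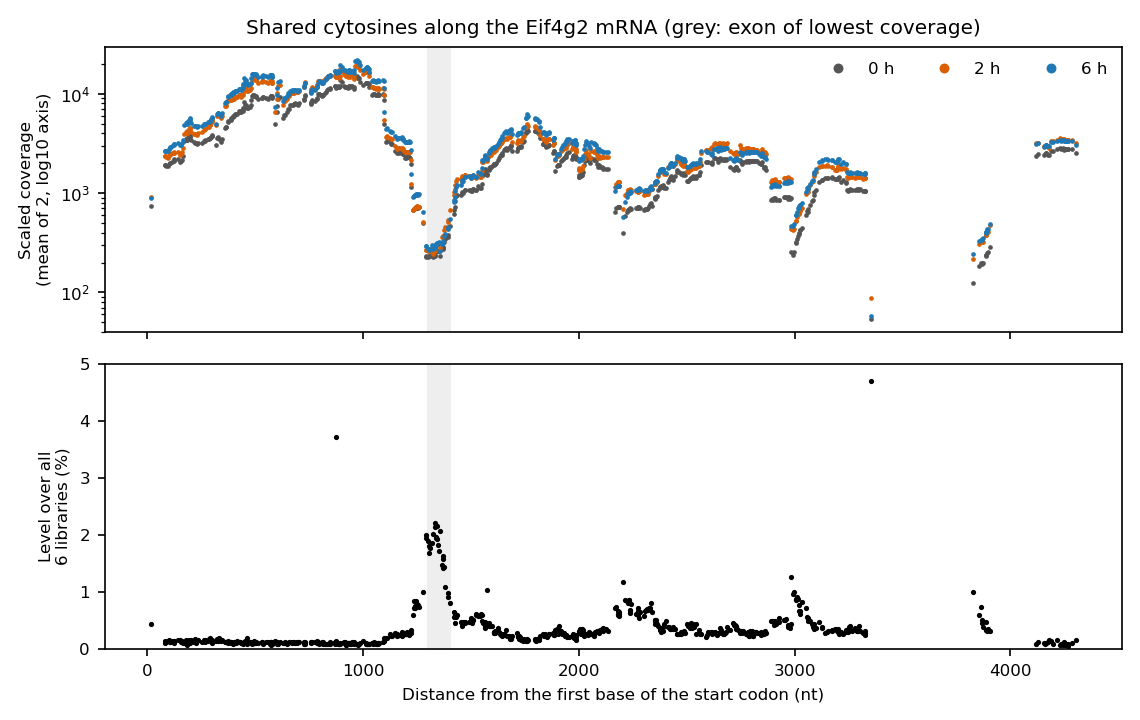
Scaled coverage (upper panel, mean of 2 libraries per time point, log10 axis) and methylation level in percent over all 6 libraries (lower panel) at the 680 shared cytosines of Eif4g2 against their distance from the start codon in nt; the grey band marks exon 14. The 24 shared cytosines of exon 14, the exon of lowest median coverage, have levels of 0.802% to 2.21%, while the position in exon 10 (3.72%) stands alone among deeply covered neighbours.

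The coverage of the shared cytosines also measures how much of each mRNA was in the library. Values are given as scaled reads, the mean coverage per shared cytosine after TMM scaling to library size. They are relative to all other mRNAs of the library, and in such bulk samples fewer cells of a type and less RNA per cell cannot be told apart. Tests were run with edgeR (quasi-likelihood) on the coverage summed per gene, with adjustment over all 3174 genes tested, and changes are log2 fold changes ± SE. Of the 44 entries, 40 had the 3 positions needed for a test.

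Among the 40, individual factors moved in both directions, with no change above 2-fold. For 2 h against 0 h, 13 of 40 were called (27.6% of all genes), 6 higher and 7 lower at 2 h (13.1% and 14.6% of all genes). For 6 h against 0 h, 24 of 40 were called (63.0% of all genes), 15 higher and 9 lower (29.9% and 33.1%), and for 6 h against 2 h, 22 of 40 (53.4%), 15 higher and 7 lower (25.5% and 27.9%). The shares called in any direction were 32.5%, 60%, and 55% of the 40. From 2 h to 6 h, 37.5% were higher and 17.5% lower. The median change of the 40 was −0.03, 0.09, and 0.08, against −0.03, −0.01, and −0.02 over all genes. The 3 comparisons share their libraries. When either 0 h library was left out, fewer were called for 2 h against 0 h, both among the 40 and among all genes. The same held for 6 h against 2 h when either 6 h library was left out. Of the 13 calls at 2 h, 4 were kept whichever library was left out (Eif1, Eif1b, Eif4a1, and Eif5a), and 9 were lost in at least 1 such fit (Eef1a2, Eef1d, Eif2b5, Eif3d, Eif3e, Eif4b, Eif4e, Eif4g2, and Eif5b). Of the 24 calls for 6 h against 0 h, 13 were kept and 11 were lost (Eif1ax, Eif2s1, Eif2s2, Eif3c, Eif3f, Eif3g, Eif3l, Eif3m, Eif4a2, Eif4g1, and Eif4h). Of the 22 calls for 6 h against 2 h, 7 were kept (Eef1a2, Eef1d, Eif3k, Eif4b, Eif4ebp2, Eif5b, and Eif6). When replicate numbers entered the fit as a block, the 2 h calls of Eef1a2, Eif3e, and Eif4e were lost (edgeR adjusted p = 0.0681, 0.0563, and 0.0720). The level of the astrocyte markers moved too, with a sum over Aldh1l1 and Slc1a3 of 4867 to 4991 scaled reads in the 0 h libraries, 4348 to 4572 in those of 2 h, and 3732 to 3871 in those of 6 h, while the other 2 of the 4 had no shared position. The sum of the 5 neuronal markers was 28615 to 29885, 19759 to 21581, and 21222 to 21368, in the same order, with a change of −0.99 and −1.24 in Tubb3 and of 0.02 and 0.38 in Snap25. Olig2 and Pdgfra, the oligodendrocyte lineage markers with a shared position (2 of 4), summed to 1192 to 1263, 891 to 1000, and 1051 to 1189, and Olig2 rose from 2 h to 6 h by 0.44 (edgeR adjusted p = 0.0179). Their part in the results was not tested.

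**Figure D4:**
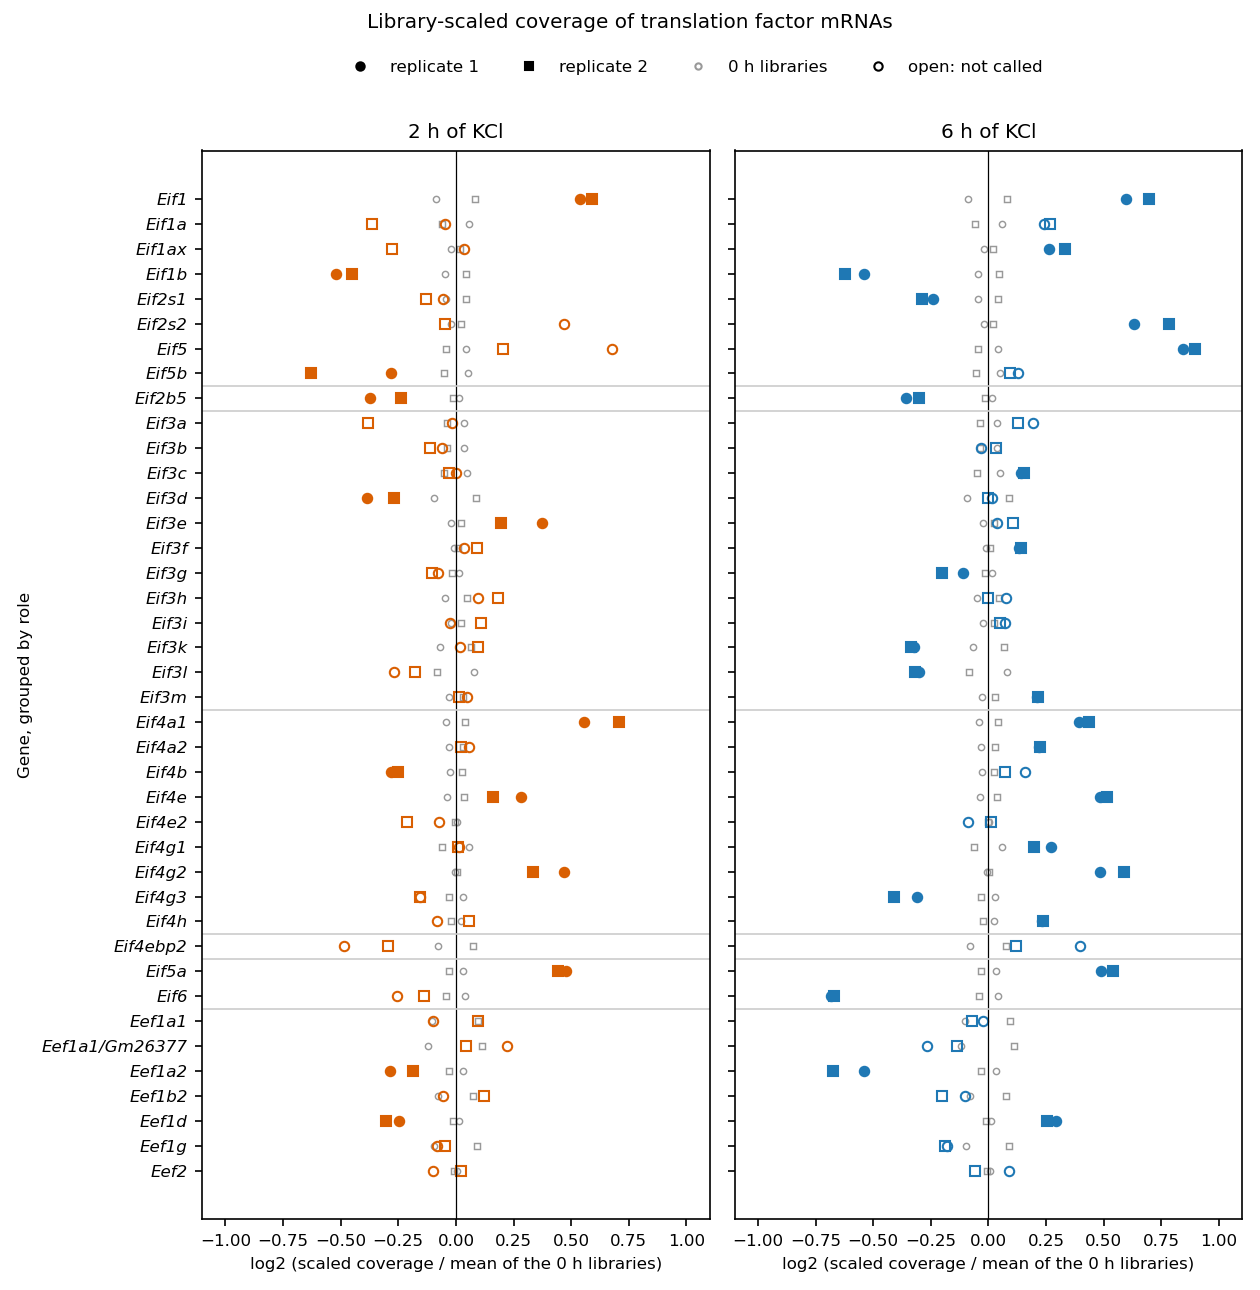
Log2 ratio of the scaled coverage of each library to the mean of the 0 h libraries (x axis) for the 40 tested entries (y axis, grouped by role: start selection and eIF2, eIF2B, eIF3, eIF4, eIF4E-binding, eIF5A and eIF6, elongation) at 2 h (left) and 6 h (right). Filled symbols mark edgeR calls (13 at 2 h, 24 at 6 h), circles replicate 1, squares replicate 2, and small grey symbols the 0 h libraries.

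Among the factors of start codon selection, eIF2, and subunit joining, 4 of 8 were higher and 2 lower at 6 h than at 0 h (29.9% and 33.1% of all genes). Eif1, which encodes eIF1, had 3937 and 4431 scaled reads before KCl, 6083 and 6293 after 2 h, and 6332 and 6772 after 6 h. Its groups at 2 h and 6 h lay above those at 0 h, with a change of 0.56 ± 0.07 at 2 h (edgeR adjusted p = 0.00355) and 0.65 ± 0.07 at 6 h (adjusted p = 5.52e-04). Its close paralogue Eif1b did the reverse, with 6755 and 7202 before KCl, 4873 and 5105 after 2 h, and 4794 and 4534 after 6 h. The change was −0.48 ± 0.06 at 2 h (edgeR adjusted p = 0.00325) and −0.58 ± 0.06 at 6 h (adjusted p = 4.21e-04). The levels of the pair were not compared, since 86 of the 154 positions of Eif1 and 29 of the 98 of Eif1b lie in the less covered 3′ UTR.

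Eif5, which encodes the GTPase-activating protein of eIF2, had the largest rise of the 40 at 6 h. It had 3151 and 2971 scaled reads before KCl, 4898 and 3525 after 2 h, and 5502 and 5700 after 6 h, a change of 0.87 ± 0.15 at 6 h (edgeR adjusted p = 0.00292). The 2 h replicates were far apart, and the 2 h change of 0.46 ± 0.15 was not called (adjusted p = 0.0629; 0.68 with adjusted p = 3.23e-04 without 2 h replicate 2). Eif2s2, the beta subunit of eIF2, had 3515 and 3615 before KCl, 4931 and 3446 after 2 h, and 5517 and 6140 after 6 h. Its 6 h libraries were the highest, with a change of 0.71 ± 0.16 (edgeR adjusted p = 0.00991), and the 2 h libraries again disagreed. Eif2s1, the alpha subunit that the stress kinases phosphorylate, was lower at 6 h by −0.26 ± 0.06 (edgeR adjusted p = 0.0116), with 2455 and 2607 at 0 h against 2143 and 2070.

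Eif5b, which encodes the GTPase that joins the ribosomal subunits, was low at 2 h only. It had 2380 and 2215 scaled reads before KCl, 1889 and 1488 after 2 h, and 2509 and 2452 after 6 h, a change of −0.44 ± 0.11 at 2 h (edgeR adjusted p = 0.0326) and of 0.55 ± 0.11 from 2 h to 6 h (adjusted p = 0.00818). Eif1ax, a gene of eIF1A, had 4463 and 4587 before KCl, 4635 and 3738 after 2 h, and 5434 and 5701 after 6 h, and Eif1a, the other, had 2328 and 2146, 2161 and 1738, and 2647 and 2693. In both the 6 h libraries were the highest, and the rise from 2 h to 6 h was 0.41 ± 0.10 and 0.45 ± 0.11 (edgeR adjusted p = 0.0171 and 0.0147). In Eif1ax the ratio of 3′ UTR to coding coverage was 0.135 in both libraries before KCl, 0.126 and 0.110 after 2 h, and 0.0942 and 0.0892 after 6 h, from 5 and 35 positions. Its 6 h change of −0.56 ± 0.09 (log2) was the only one of 15 factors called in any comparison of this ratio (limma adjusted p = 0.0177), in a test added after the values were seen. In it 0.121%, 2.06%, and 0.607% of 824 genes were called for 2 h against 0 h, 6 h against 0 h, and 6 h against 2 h.

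The eIF2B exchange factor and the eIF2 kinases were thinly covered. Of eIF2B, only Eif2b5, the catalytic epsilon subunit, was tested. It had 2184 and 2142 scaled reads before KCl, 1672 and 1831 after 2 h, and 1688 and 1755 after 6 h, so that all later libraries were below 0 h (−0.30 ± 0.07, edgeR adjusted p = 0.0208, and −0.33 ± 0.07, adjusted p = 0.00627). Eif2ak3, which encodes PERK, the eIF2 kinase of the endoplasmic reticulum, had a single shared position with 293 and 344 scaled reads before KCl, 619 and 617 after 2 h, and 415 and 416 after 6 h. The 2 h libraries were the highest and the 0 h libraries the lowest, and in the fit without the minimum of 3 positions the change was 1.01 ± 0.11 at 2 h (edgeR adjusted p = 0.00159) and 0.44 ± 0.11 at 6 h (adjusted p = 0.0141). Eif2ak2 and Eif2ak4 had no shared position.

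Of the 12 tested subunits of eIF3, the large scaffold on the small ribosomal subunit, 1 was higher and 1 lower at 2 h (13.1% and 14.6% of all genes), and 3 were higher (Eif3c, Eif3f, and Eif3m) and 3 lower (Eif3g, Eif3k, and Eif3l) at 6 h (29.9% and 33.1%). Changes were small, from −0.33 to 0.21 at 6 h. Eif3k fell late, with 2580 and 2832 scaled reads before KCl, 2737 and 2893 after 2 h, and 2167 and 2146 after 6 h (−0.33 ± 0.07 from 0 h, edgeR adjusted p = 0.00558). Eif3d, the subunit that can bind the cap, was low at 2 h alone, with 2525 and 2861, 2059 and 2232, and 2721 and 2693 (−0.33 ± 0.08 at 2 h, edgeR adjusted p = 0.0255). Eif3e rose at 2 h, from 2370 and 2445 to 3119 and 2760, and had 2472 and 2589 at 6 h (0.29 ± 0.07 at 2 h, edgeR adjusted p = 0.0335). Eif3a, the scaffold subunit, had 5864 and 5566, 5651 and 4384, and 6540 and 6246, and was called only from 2 h to 6 h (0.35 ± 0.12, edgeR adjusted p = 0.0452). Eif3b, Eif3h, and Eif3i were not called in any comparison.

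In the eIF4 group 6 of 9 were higher and 1 lower at 6 h (29.9% and 33.1% of all genes), with a median change of 0.23 against −0.01 over all genes. Eif4e, the cap-binding protein, had 2318 and 2439 scaled reads before KCl, 2893 and 2661 after 2 h, and 3329 and 3398 after 6 h. Each time point was above the one before, with changes of 0.22 ± 0.06 at 2 h (edgeR adjusted p = 0.0434) and 0.50 ± 0.06 at 6 h (adjusted p = 8.71e-04). Eif4a1 was highest at 2 h, with 3096 and 3280 before KCl, 4681 and 5199 after 2 h, and 4191 and 4310 after 6 h. The change was 0.63 ± 0.07 at 2 h (edgeR adjusted p = 0.00200), the largest rise of the 40 at that time, 0.42 ± 0.07 at 6 h (adjusted p = 0.00272), and −0.22 ± 0.07 from 2 h to 6 h (adjusted p = 0.0379). On its 3′ UTR positions alone these changes were 0.28, 0.23, and −0.05 (edgeR adjusted p = 0.131, 0.136, and 0.744). The fall from 2 h to 6 h was also lost without any library other than 2 h replicate 1 (adjusted p = 0.0571 to 0.171). Eif4a2, the neuronal eIF4A, had 4996 and 5207 before KCl, 5311 and 5175 after 2 h, and 5940 and 5954 after 6 h. Its change was 0.04 ± 0.05 at 2 h (edgeR adjusted p = 0.555, but 0.42 with adjusted p = 0.00778 on the median coverage per gene in place of the sum) and 0.22 ± 0.05 at 6 h (adjusted p = 0.00655).

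The eIF4G family comprises Eif4g1 and Eif4g3, the scaffolds of eIF4F, and Eif4g2. Eif4g2 had 3428 and 3450 scaled reads before KCl, 4762 and 4331 after 2 h, and 4804 and 5171 after 6 h, with a change of 0.40 ± 0.06 and 0.54 ± 0.06 (edgeR adjusted p = 0.00694 and 6.92e-04). The rise ran along the mRNA, where 679 of 680 positions were higher at 2 h and all 680 at 6 h. Positions of the same mRNA share reads and scaling, so such counts, here and for the factors below, are not independent measurements. Eif4g1 had 3868 and 3563 before KCl, 3753 and 3734 after 2 h, and 4489 and 4257 after 6 h (0.24 ± 0.06 at 6 h, edgeR adjusted p = 0.0131). Eif4g3 had 2515 and 2413, 2214 and 2212, and 1986 and 1855, so that its libraries were lower at each later time point (−0.36 ± 0.06 at 6 h, edgeR adjusted p = 0.00229). The differences between the paralogues were not tested. Eif4b, a cofactor of eIF4A, had 2095 and 2173 before KCl, 1756 and 1793 after 2 h, and 2380 and 2244 after 6 h, and was low at 2 h alone (−0.27 ± 0.06, edgeR adjusted p = 0.0172). Eif4h, another cofactor, rose at 6 h from 3902 and 3780 to 4517 and 4521 (0.23 ± 0.06, edgeR adjusted p = 0.0174). Eif4e2, a cap-binding relative of eIF4E, was not called in any comparison.

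Of the eIF4E-binding proteins, Eif4ebp2 had 20 shared positions, 18 of them in the repeat. It had 302 and 337 scaled reads before KCl, 228 and 260 after 2 h, and 420 and 347 after 6 h. The 2 h libraries were the lowest, and the change from 2 h to 6 h was 0.65 ± 0.12 (edgeR adjusted p = 0.00583). The changes from 0 h were −0.39 ± 0.12 at 2 h (adjusted p = 0.0616) and 0.26 ± 0.12 at 6 h (adjusted p = 0.103). The single position of Eif4ebp1 showed a change of 0.77 ± 0.18 at 6 h and of 1.05 ± 0.18 from 2 h to 6 h in the fit without the minimum of 3 positions (edgeR adjusted p = 0.00869 and 0.00329).

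Eif5a, whose protein carries hypusine and keeps ribosomes moving through difficult stretches, was among the 4 best covered mRNAs. It had 9374 and 8975 scaled reads before KCl, 12775 and 12477 after 2 h, and 12889 and 13343 after 6 h, and all later libraries were above 0 h (0.46 ± 0.05 and 0.52 ± 0.05, edgeR adjusted p = 0.00165 and 2.70e-04). All 199 of its positions were higher at 2 h and at 6 h. Eif6, which keeps the large ribosomal subunit apart from the small one, had the largest fall of the 40 at 6 h, with 1374 and 1297 before KCl, 1119 and 1214 after 2 h, and 832 and 840 after 6 h (−0.68 ± 0.07, edgeR adjusted p = 5.49e-04, from 4 positions).

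The core elongation factors were among the most deeply covered mRNAs, and Eef1a1 and Eef2 were not called in any comparison. The study called positions from unambiguously aligned reads. The lists do not show whether reads from pseudogene copies of Eef1a1 were among those counted at the gene, so its level is uncertain. Eef1a1 had 32546 and 37337 scaled reads before KCl, 32660 and 37339 after 2 h, and 34393 and 33213 after 6 h, and the time points overlapped (0.00 ± 0.09 at 2 h, edgeR adjusted p = 0.986, and −0.05 ± 0.09 at 6 h, adjusted p = 0.658). Eef2 had 14587 and 14453, 13546 and 14724, and 15441 and 13936 (0.02 ± 0.07 at 6 h, edgeR adjusted p = 0.837). Eef1b2 and Eef1g, both eEF1B subunits, were not called in any comparison, although both 6 h libraries were the lowest of the 6, at 11947 and 11141 and at 5250 and 5215 scaled reads. Eef1a2, the isoform that replaces eEF1A1 in mature neurons and muscle, fell step by step instead. It had 5641 and 5397 before KCl, 4527 and 4845 after 2 h, and 3800 and 3461 after 6 h, with a change of −0.24 ± 0.07 at 2 h (edgeR adjusted p = 0.0452) and −0.60 ± 0.07 at 6 h (adjusted p = 5.49e-04). All 160 positions of Eef1a2 were lower at both times. Eef1d, the third eEF1B subunit gene, had 3433 and 3375 before KCl, 2870 and 2756 after 2 h, and 4170 and 4057 after 6 h. It was lower at 2 h (−0.28 ± 0.05, edgeR adjusted p = 0.0118) and higher at 6 h (0.27 ± 0.05, adjusted p = 0.00451) with no overlap between groups, and all 72 of its positions followed. The entry of Eef1a1 with Gm26377, an overlapping gene, had a change of −0.34 ± 0.10 from 2 h to 6 h (edgeR adjusted p = 0.0349).

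**Figure D5:**
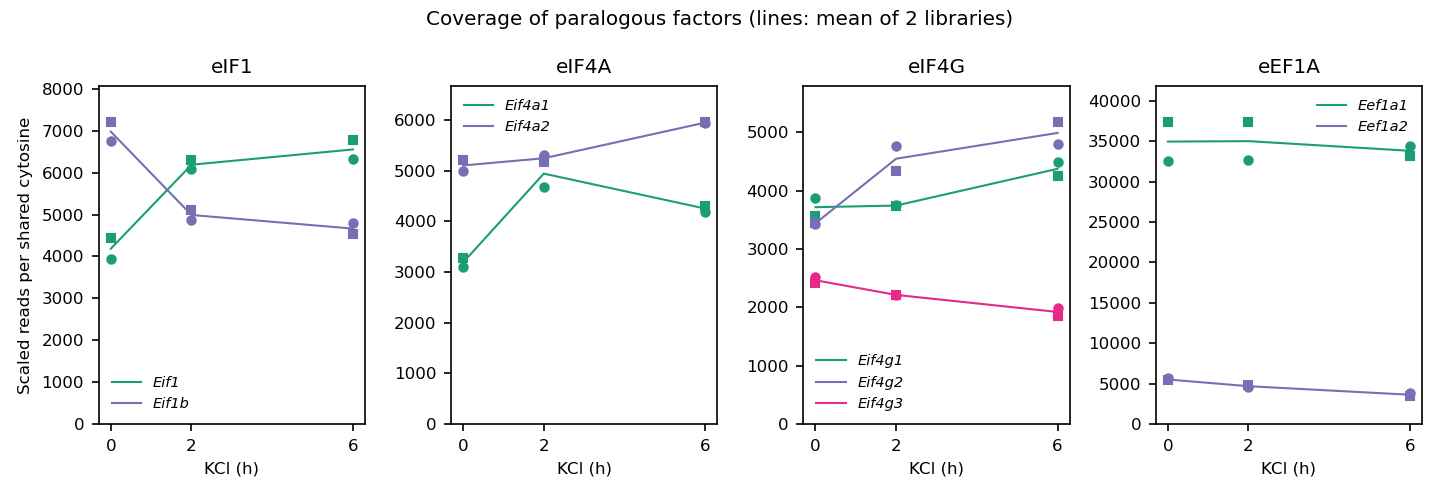
Scaled reads per shared cytosine (y axis) against hours of KCl (x axis) for 4 groups of paralogues; circles are replicate 1, squares replicate 2, and lines join the means of the 2 libraries. Eif1 rises while Eif1b falls, Eif4a1 rises most at 2 h, Eif4g2 rises while Eif4g3 falls, and Eef1a2 falls while Eef1a1 overlaps between time points.

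Of 9 factors listed here as members of the terminal oligopyrimidine (TOP) class, which mTOR controls through LARP1, 1 was called higher and 2 lower at 2 h (13.1% and 14.6% of all genes), and 2 higher and 0 lower at 6 h (29.9% and 33.1%), with a median change of 0.00 and 0.04. The list comes from general knowledge of this class. In the RefSeq promoter table (GRCm38), a C followed by 4 pyrimidines stood at the annotated start of 1 of 34 matched factors (Eif3f) and of 3.01% of all genes. Of 17 other genes of translation control that were tested, 7 were higher and 0 lower at 2 h (13.1% and 14.6% of all genes), and 11 higher and 0 lower at 6 h (29.9% and 33.1%). Their median change was 0.30 and 0.64, and a difference from the factors was not tested. Among them, Ppp1r15a, the GADD34 subunit that brings a phosphatase to eIF2, had 228 and 284 scaled reads before KCl, 2300 and 2288 after 2 h, and 1329 and 1221 after 6 h (3.16 ± 0.12 at 2 h, edgeR adjusted p = 4.73e-05). Atf4, the transcription factor translated when eIF2 is phosphorylated, had 2761 and 2806, 10582 and 10341, and 9529 and 9140 (1.91 ± 0.05 at 2 h, edgeR adjusted p = 6.51e-06). Rheb, the activator of mTOR, had 3497 and 3745, 5084 and 4776, and 6807 and 7439 (0.98 ± 0.07 at 6 h, edgeR adjusted p = 1.31e-04).

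The other 23 of 67 listed entries had no shared position and no value here, among them Eef2k, the kinase of eEF2, with 64 to 314 listed cytosines per library, Eif2a, Eif2d, Eif2s3x, Eif2b1 to Eif2b4, Eif4enif1, and Eif5a2. Eif1ad, with 1 shared position, had 1066 and 1074 scaled reads before KCl, 906 and 905 after 2 h, and 1031 and 1151 after 6 h.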

How the data were processed

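The authors' lists came from meRanTK (meRanRh for alignment to GRCm38, meRanCall for calling), after Trim Galore had clipped 6 bases from each 5′ end along with adapters and poor-quality sequence. For each library they deposited, per listed position, counts of covering, unconverted, and mutated reads without normalization, and the methylation level as a fraction. The fraction served as a check, and levels were recomputed from the counts. The deposited p-values and scores were not used, and the 3C, signal/noise, FDR, and secondary-structure filters of the study were not repeated, so positions counted here could fail them. Coverage summed per gene was tested with edgeR 4.0.16 (TMM, filterByExpr) in R 4.3.3 over all 6 libraries, and ratios and single-library levels with limma 3.58.1. DESeq2 1.42.0 was an alternative. Segments came from GENCODE M21. All 5169 contexts equalled the GRCm38 reference. Scripts were tested on simulated data. Intervals cover counting error only, since PCR copies were not separated. The study's methods call the replicates biological; the labels do not name their cultures, so edgeR and limma p-values measure the spread between these libraries, whereas those of Fisher's exact test cover counting error only. The rule for named factors took the 5 largest called rises and falls per comparison, factors with methylated or tested positions, the 5 positions of highest level, and factors chosen for their role. Eif3h, the 3′ UTR position of Eif4ebp2, and some factors in role counts were added after their values were seen. The members, gene lists, and tests were chosen with earlier results of these data known. Same-numbered replicates correlated at 0.44 (0 h and 2 h), −0.23, and −0.22 in their deviations over genes, so the numbers were not taken as pairs. Positions without a gene held 0.214% to 0.295% of the coverage and were left out. RNA-seq data were not used here.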

Additional observations from a re-analysis of the deposited data

How the results depend on the processing

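Of 75 coverage results for named factors, 45 were called, none of these changed sign in any setting, and 21 were kept in all settings. With each library left out in turn, the factors called numbered 4 to 17 (2 h against 0 h), 14 to 27 (6 h against 0 h), and 8 to 23 (6 h against 2 h), and all genes called 385 to 1061, 1455 to 2241, and 1097 to 1884. In the same order, 3′ UTR positions alone gave 4, 6, and 1 of 16 factors and 285, 688, and 522 of the 1202 genes tested, and a fold above 2 gave 0, 0, and 0 factors and 59, 226, and 104 genes. Without the filter 1338 of 4804 genes were called at 2 h and 2624 of 4804 from 2 h to 6 h, against 877 and 1695 of 3174. With the replicate number as a block, 10, 20, and 21 of 40 factors were called, beside 801, 1966, and 1662 of 3174 genes. The factors lost were Eef1a2, Eif3e, and Eif4e, then Eif1ax, Eif3c, Eif3f, and Eif3g, then Eif2s2 and Eif3e, where Eif5 was gained. With the 6 h numbers crossed, a pairing tried after seeing the data, 15, 26, and 24 factors and 1002, 2131, and 1843 genes were called. For methylation, the counts over all positions were 921, 1069, and 1201 at a minimum level of 1% and 206, 178, and 320 at 10%, and those over factor positions were 5, 4, and 6 at 1% and 0, 0, and 0 of 12 at 10% (Fisher's exact test, with 0, 4, and 2 at an unadjusted p below 0.05). Limma gave 0, 0, and 0, with 1, 1, and 1 factor position at an unadjusted p below 0.05. Over positions that passed the standard filter, 204 (6 h against 0 h) and 354 (6 h against 2 h) were called, with 1 and 1 factor positions. The block gave 1, 1, and 3 of 19 factor positions, beside 342, 365, and 660 of all 3167. A minimum coverage of 50 gave 4 of 19 from 2 h to 6 h, beside 549 of 1913. Leaving out each library gave 225 to 348, 229 to 738, and 257 to 887 positions, with 0 to 1, 1 to 3, and 1 to 2 factor positions, and the counts of 738 and 887 were those without 6 h replicate 2. The causes were not tested. Positions at the standard filter stayed within 1.5 times under all alternatives. The sites of Eif2ak1 and Eif4ebp1 had 134 to 297 reads per library.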
